A study of Mus musculus with 22 samples.

Results

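Chromatin accessibility at 10 genes for lipid droplet proteins was followed in ATAC-seq libraries from mouse adipocyte nuclei. The members were chosen by name and not by a measured value. They are the perilipin genes Plin1, Plin2, Plin3, Plin4 and Plin5, the CIDE family genes Cidea and Cidec, and Bscl2, Fitm2 and Hilpda, which together are 10 of the 21938 protein-coding genes of the GENCODE vM21 annotation. Each gene was described by the peaks that overlapped its locus, defined as the gene span in mouse genome build GRCm38 with 20 kb added on each side. Every one of the 10 loci held at least 1 peak, and a peak over a transcription start site of the gene, in each of the 22 libraries.

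ATAC-seq marks open chromatin by the places where a transposase can insert. The design tests for a lasting trace of obesity in adipocyte chromatin once body weight has been lowered by diet. The libraries came from epididymal fat of male AdipoERCre x NuTRAP mice (background given as C576BL6), in which Cre recombinase driven by the Adipoq promoter and switched on by tamoxifen activates a reporter that biotinylates nuclei. All groups, controls included, carried both alleles and received tamoxifen, so the pull-down was aimed at nuclei of cells in which Cre had acted, and each library is 1 animal. At 18 weeks of age, 3 control mice kept on low-fat chow (C) were set against 3 mice that had eaten the high-fat diet for 12 weeks (H). At 26 weeks, 3 chow-fed controls (CC_s) faced 3 mice with the same 12 weeks of high-fat feeding followed by 8 weeks on chow (HC). The longer arm had 2 low-fat controls (CC_l) and 3 mice fed the high-fat diet for 25 weeks (HH), all 31 weeks old. Its weight loss stage, at 39 weeks of age, had 2 chow-fed controls (CCC) and 3 mice with 25 weeks of high-fat feeding before 8 weeks on chow (HHC). Per the study's methods the chow of the last 8 weeks differed from the earlier control diet and was given to CC_s and CCC too. Below, obese mice are those of H and HH, and weight loss refers to HC and HHC.

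Lipid droplets store triacylglycerol and sterol esters behind a monolayer of phospholipids. They form at the endoplasmic reticulum, where seipin (encoded by Bscl2) and FIT2 (encoded by Fitm2) act in their assembly. Perilipins coat the droplet surface and control the access of lipases. CIDE proteins pass lipid from smaller to larger droplets and so favour the large droplet typical of white adipocytes, and HILPDA inhibits adipose triglyceride lipase.

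Sequences at or near the highest points inside the loci are shown first for some of the members. The promoters are the bases directly upstream of the RefSeq start site, and the upstream windows are 150 bases around the point that recurred between libraries. All are written 5′ to 3′ on the strand of the gene, in build GRCm38. Capitals mark bases that lay in the deposited interval of highest coverage of a peak in at least 1 library.
Plin2 upstream (chr4:86690373-86690522, minus strand): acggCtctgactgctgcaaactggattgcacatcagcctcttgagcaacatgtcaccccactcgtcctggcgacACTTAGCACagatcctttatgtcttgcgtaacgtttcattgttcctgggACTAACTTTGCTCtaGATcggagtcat
Plin2 promoter (chr4:86670061-86670309, minus strand): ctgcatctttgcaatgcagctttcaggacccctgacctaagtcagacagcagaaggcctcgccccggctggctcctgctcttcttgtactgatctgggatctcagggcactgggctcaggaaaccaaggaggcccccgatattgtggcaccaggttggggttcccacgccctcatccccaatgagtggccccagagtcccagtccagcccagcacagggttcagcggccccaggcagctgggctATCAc
Plin1 upstream (chr7:79734731-79734880, minus strand): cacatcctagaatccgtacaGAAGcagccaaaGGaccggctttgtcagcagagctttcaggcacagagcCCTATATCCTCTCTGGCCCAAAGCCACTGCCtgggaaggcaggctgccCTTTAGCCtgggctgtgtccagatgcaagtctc
Cidec promoter (chr6:113435761-113436010, minus strand): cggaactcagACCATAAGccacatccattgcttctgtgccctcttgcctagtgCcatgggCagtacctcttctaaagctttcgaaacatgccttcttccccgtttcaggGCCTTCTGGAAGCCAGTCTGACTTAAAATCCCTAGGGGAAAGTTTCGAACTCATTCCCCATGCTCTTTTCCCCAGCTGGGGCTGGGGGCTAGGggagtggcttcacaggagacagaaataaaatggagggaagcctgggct
Fitm2 promoter (chr2:163472630-163472879, minus strand): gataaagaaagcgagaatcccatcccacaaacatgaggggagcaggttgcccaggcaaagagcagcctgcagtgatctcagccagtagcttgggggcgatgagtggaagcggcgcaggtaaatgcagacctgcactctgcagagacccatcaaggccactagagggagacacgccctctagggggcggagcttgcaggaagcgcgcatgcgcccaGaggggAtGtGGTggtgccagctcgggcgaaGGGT
Hilpda upstream (chr6:29264327-29264476, plus strand): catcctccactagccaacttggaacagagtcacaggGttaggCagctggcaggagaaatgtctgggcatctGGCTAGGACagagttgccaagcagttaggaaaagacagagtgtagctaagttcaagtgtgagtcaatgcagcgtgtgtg
A RefSeq promoter sequence was at hand for 9 of the 10 members, all but Cidea. The promoters shown are those of the 3 genes whose highest point inside the locus lay within 1 kb of their own start site in 19 or more libraries, namely Plin2, Cidec and Fitm2. The printed Cidec promoter held that point in 19 of 22 libraries, the Fitm2 promoter in 5 and the Plin2 promoter in 1. In most other libraries the point of Fitm2 and Plin2 lay on the gene side of the start. The upstream windows are those in which the highest coverage of Plin1 and Hilpda recurred, and a window upstream of Plin2 that is described with the regions.

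Known motifs were searched on both strands of the 250 bases upstream of the 9 matched start sites and of the 3 upstream windows (the TATA box on the strand of the gene only). TTGCGNAA, a C/EBP motif, was found in the Plin2 upstream window alone, starting at base 98, and 1.05% of 43311 windows of that length around peak summits hold it. CCAAT was found in 5 of 9 promoters (33.9% of 32841 RefSeq promoters hold it) and GGGCGG in 4 of 9 (32.7%). NCGTG, a loose form of the core of the hypoxia response element that allows any first base, was found in 5 of 9 (55.4%). The Hilpda upstream window also held NCGTG. The E-box CACGTG, within which NCGTG also matches, was found in none of the promoters or windows (6.02% of promoters hold it). The same was true of the TATA box TATAAA (7.59%) and of AGGNCANAGGNCA, a direct repeat bound by PPARγ with RXR (0.338%). These matches describe letters in a window and not binding.

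The libraries differed in quality in ways that bear on the loci. HC 3 and HHC 3 stood apart, with a median maximum signal per peak of 17 and 18 against 30 to 107 in the other 20 libraries. The maximum signal of a peak is its highest coverage and its total signal is the coverage summed over its bases. The median maximum divided by the lowest maximum of a library, an enrichment ratio, was 4.70 to 6.40 in H and 6.82 to 8.92 in C. It was 2.43 to 6.50 in HC and 7.30 to 7.42 in CC_s. In the longer arm the groups overlapped, with 3.75 to 6.20 in HH and 4.67 and 7.30 in CC_l. The ratio there was 2.25 to 6.42 in HHC and 3.67 and 8.20 in CCC. All 10 promoters of the adipocyte marker list carried a signal above the lowest ranked value in every library, against 2 to 6 of the 10 macrophage promoters. The depth of the libraries is unknown because the files hold no read counts.

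The loci differed strongly from one another in signal per length. For this measure the total signal of each peak was prorated by its overlap with the locus. The median over 22 libraries of this signal per kb of locus was 52813 at Plin4 and 51286 at Plin5. The next values were 22187 at Plin1, whose protein is the main droplet coat of adipocytes, and 22046 at Cidec. Plin4 and Plin5 are neighbours on chromosome 17 and share peaks, so neither was higher than the other beyond their spread (Plin4 higher in 11 of 22 libraries). Plin5 exceeded Plin1 in 22 of 22 libraries, by a median ratio of 2.18. Plin1 exceeded Cidec in 16 of 22 libraries by a median ratio of 1.08, a difference that was small beside the spread. The median was 13820.2 at Plin3, 11282 at Bscl2, 9108 at Plin2, 8221 at Fitm2, 7554 at Hilpda and 6242 at Cidea. Within libraries the step was in the same direction in 21 of 22 from Cidec to Plin3 and from Plin3 to Bscl2, in 18 of 22 from Bscl2 to Plin2 and from Fitm2 to Hilpda, and in 19 of 22 from Hilpda to Cidea. Plin2 and Fitm2 did not differ beyond their spread, since Plin2 was the higher in 10 of 22. Against all protein-coding loci, the median percentile of this per-length level ran from 85.8 at Cidea to 99.9 at Plin4.

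For comparisons between libraries the total signal of the peaks in each locus was rank-mapped. A locus took the mean log2 signal that the locus of its rank had over all libraries, and loci beyond the first 16763 ranks of 21938 sat at a shared lowest value of 14.06, the floor. All differences below are on this log2 scale. They compare ranks within libraries, and a difference can be in the width or in the height of the peaks. In bulk libraries, fewer nuclei of a kind and less open chromatin per nucleus cannot be told apart.

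**Figure D1:**
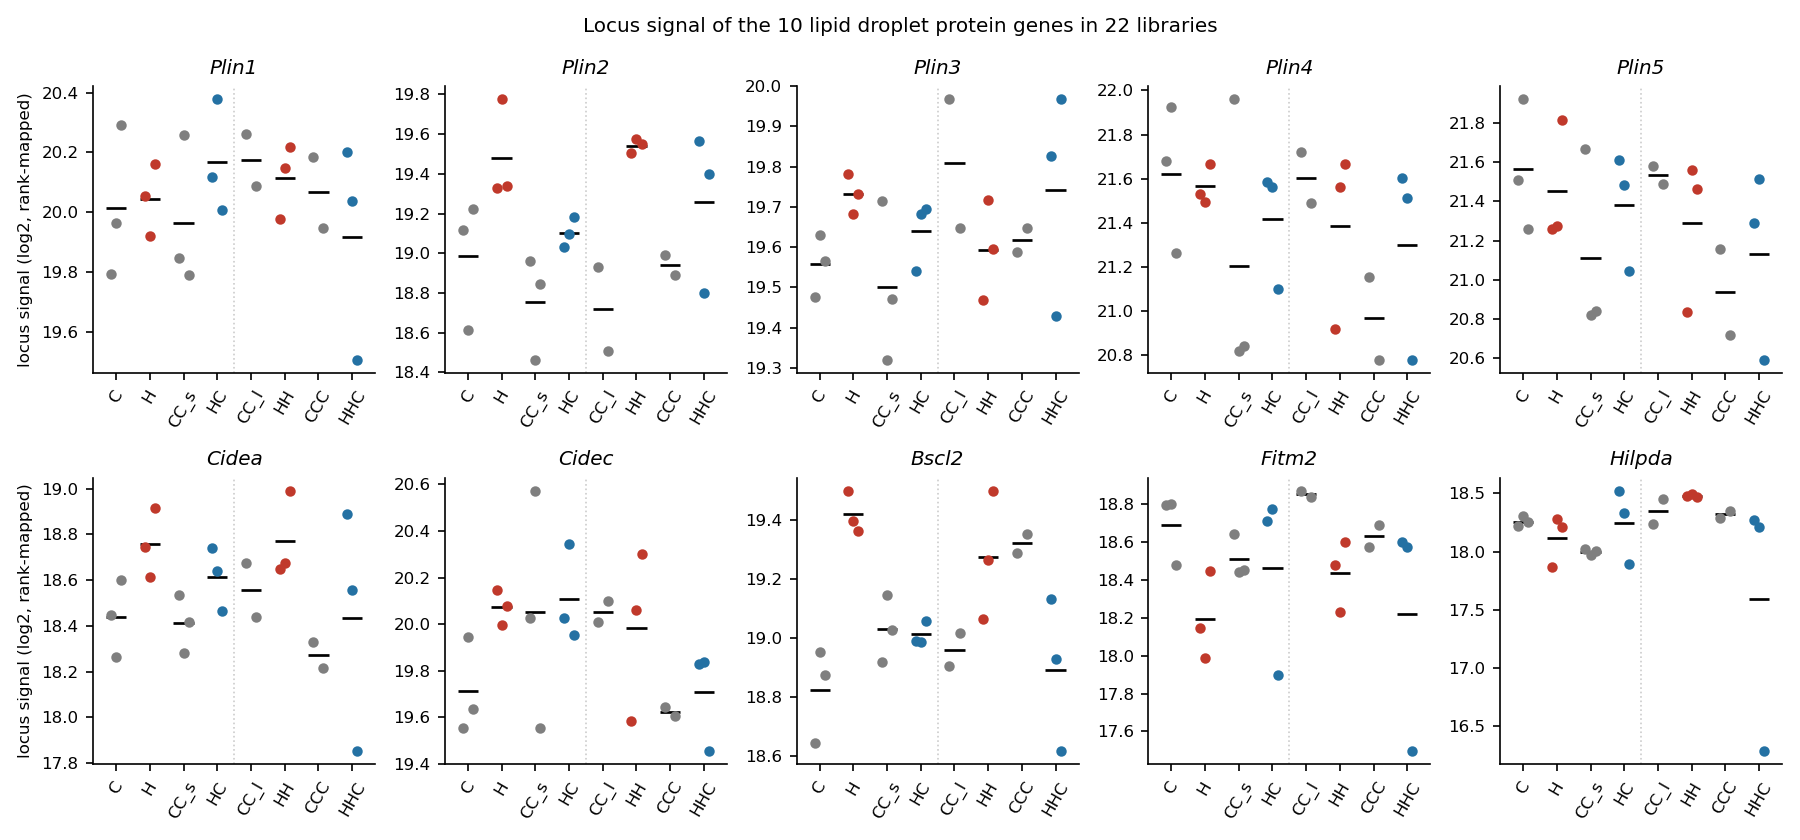
Rank-mapped log2 locus signal (vertical axis, a separate range in each panel) of the 10 genes in 22 libraries by group. Each point is 1 library, with grey for control, red for obese and blue for weight loss, bars are group means and the dotted line separates the shorter from the longer feeding. The H and HH libraries lie above their controls C and CC_l at Plin2 and Bscl2 and below them at Fitm2, and HHC 3 is the low point at Hilpda (16.28).

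Between obese mice and their controls over both durations, the Plin2 and Bscl2 loci carried more signal and the Fitm2 locus carried less. Plin2 was 1.58-fold and Bscl2 1.37-fold higher, and Fitm2 was at 0.727 of the control level. The other 7 loci did not pass the test. These 3 of 10 members compare with 15.3% of 17844 loci called in either direction, of which 8.55% were higher and 6.72% lower, in the limma fit over 11 libraries at an adjusted p under 0.05. With only 10 members the count is read as a description. The median difference of the 10 members was -0.0087, against -0.0218 over all loci. Between HH and CC_l alone no member was called (0.00579% of 17281 loci were), although Plin2 had an unadjusted p under 0.05. No locus in the genome differed between the durations at an adjusted p under 0.05 (0 in obesity and 0 in weight loss), with unadjusted values under 0.05 at 896 and 246 loci in limma.

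**Figure D2:**
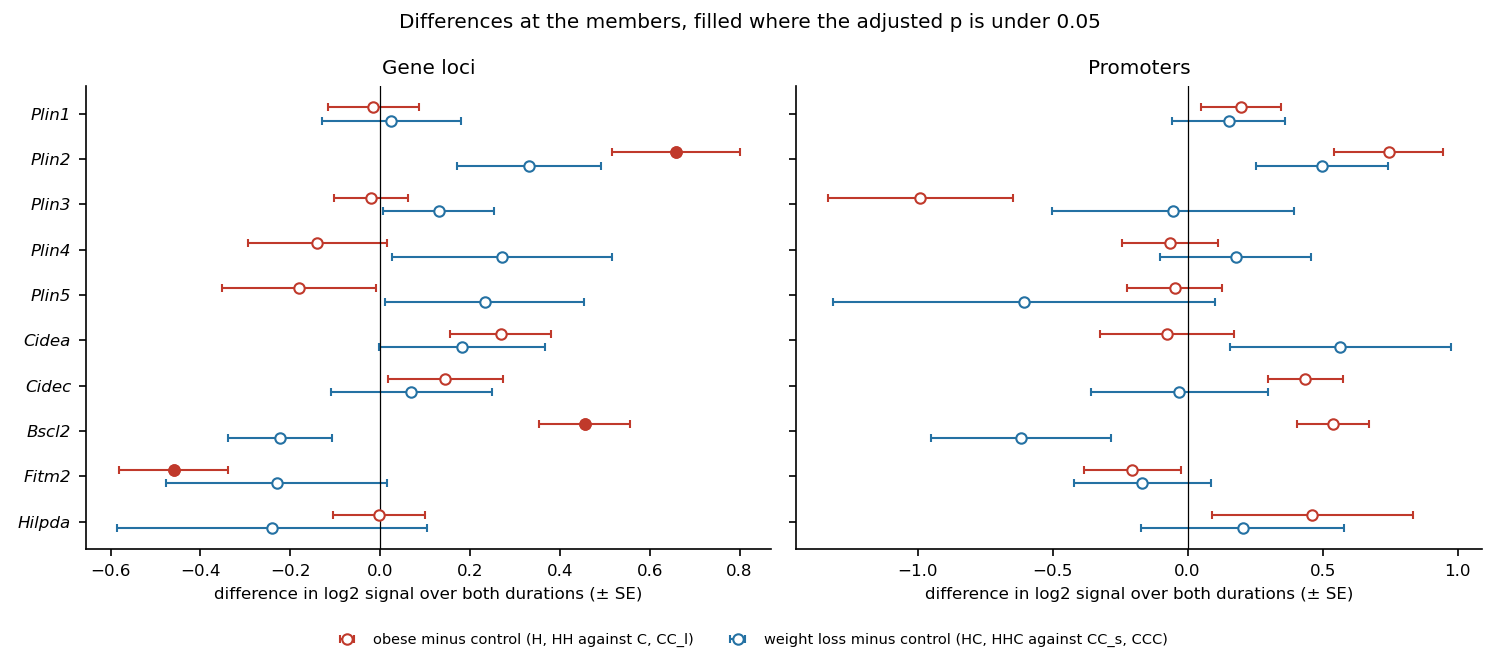
Differences in rank-mapped log2 signal over both durations (horizontal axis, points with SE bars) at the loci and the promoters of the 10 genes, for obese minus control in red and weight loss minus control in blue. Filled points have an adjusted p under 0.05 in limma, and they are Plin2 (0.66), Bscl2 (0.46) and Fitm2 (-0.46) at the loci of obese mice.

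Plin2 (chr4:86648386-86670060, minus strand) encodes perilipin 2, a droplet coat protein of most tissues, and its locus holds no other protein-coding gene. In the shorter feeding its locus signal was 19.12, 18.61 and 19.22 in C and 19.33, 19.78 and 19.34 in H. In the longer feeding it was 18.93 and 18.51 in CC_l and 19.50, 19.57 and 19.55 in HH. Each obese library lay above each of its controls, and HH varied little (19.54 ± 0.04, SD, n = 3). The difference was 0.50 ± 0.20 (SE) between H and C and 0.82 ± 0.17 between HH and CC_l, with adjusted p = 0.152 and 0.163 in limma. Over both durations it was 0.66 ± 0.14, with adjusted p = 0.0146 in limma, and it did not differ between the durations (0.33 ± 0.28, limma adjusted p = 0.929). Without CC_l 2 the Plin2 difference was 0.55 with a limma adjusted p of 0.0797, and without each of the other 10 libraries it was called. With each library divided by its summed signal in place of the ranks, the difference was 0.44 (limma adjusted p = 0.0897).

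The share of the Plin2 locus under peaks was 49.3%, 44.4% and 56.9% in C and 57.2%, 70.8% and 59.1% in H. It was 44.2% and 42.3% in CC_l and 39.1%, 61.8% and 57.9% in HH, where HH 1, a library with a small covered length (132 Mb), fell below both controls. The difference over both durations was 10.9 percentage points (two-sided exact permutation test within durations, p = 0.065), and without HH 1 it was 14.4 points (exact permutation p = 0.0167). Divided by the covered share of the genome in the same library, the difference was 2.00, with an exact permutation p of 0.005, the smallest that the 200 relabellings allow. Each deposited peak carries 1 point of highest coverage. The highest such point inside the Plin2 locus, as a multiple of the median peak maximum of the library, was 2.07, 2.78 and 3.12 in C and 1.75, 2.32 and 2.42 in H. It was 2.33 and 1.99 in CC_l and 2.4, 2.03 and 2.03 in HH, so that the groups overlapped in both pairs. In 18 of 22 libraries a peak that reached into the Plin2 locus had a higher point outside it. The maximum signal, which counts such peaks by that outside point, differed by 0.16 at Plin2 (adjusted p = 0.572 in limma).

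Among the points inside the Plin2 locus the highest lay between -4 and 330 bp from the start site in 22 of 22 libraries, next to the promoter printed above, which held that point in C 1 and lay just before it elsewhere. A region upstream of Plin2 also recurred. Its highest point fell within 70 bp of a position at -20388 bp in 22 of 22 libraries, just outside the flank but in peaks that reached into it, and this is the Plin2 upstream window printed above. Region signal there was 17.36, 16.95 and 17.48 in C and 17.25, 17.42 and 17.23 in H. It was 16.63 and 16.85 in CC_l and 17.73, 17.61 and 17.43 in HH. The groups thus overlapped after the shorter feeding and did not after the longer one.

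Bscl2 (chr19:8837467-8848683, plus strand) encodes seipin, which acts where droplets bud from the endoplasmic reticulum. Its locus signal was 18.64, 18.95 and 18.87 in C and 19.50, 19.40 and 19.36 in H. It was 18.90 and 19.02 in CC_l and 19.06, 19.26 and 19.50 in HH. The obese libraries again lay above all their controls, by a wide gap in the shorter feeding and a narrow one in the longer. The difference was 0.60 ± 0.12 between H and C (adjusted p = 0.0307 in limma), the only 1 of 10 members called in that pair, where 11% of 17045 loci were called. It was 0.31 ± 0.18 between HH and CC_l (adjusted p = 0.540 in limma), and 0.46 ± 0.10 over both (adjusted p = 0.016 in limma). The 2 pairs were not shown to differ (-0.28 ± 0.20, limma adjusted p = 0.929). The Bscl2 call between H and C did not hold in any fit that left out 1 of the 6 libraries (limma adjusted p from 0.0527 to 0.101), and the call over both durations ended without CC_l 1 (limma adjusted p = 0.0684), under division by the summed signal (0.24, limma adjusted p = 0.345), with each peak's signal prorated by its overlap with the locus (0.29, limma adjusted p = 0.0619) and with the maximum signal (0.35, limma adjusted p = 0.0522). Between H and C the Bscl2 difference was 0.39 when prorated (limma adjusted p = 0.0726) and 0.35 under division by the summed signal (limma adjusted p = 0.246).

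The Bscl2 locus is the most crowded of the 10. It holds 5 other protein-coding genes, Ttc9c, Hnrnpul2, AC129217.1, Gng3 and Lrrn4cl. The point of highest coverage was never at Bscl2. It lay at the start of Hnrnpul2 in 15 libraries and of Ttc9c in 7, from -18101 to -17551 bp of the Bscl2 start. At the promoter of Bscl2 itself (2000 bp on each side of its start sites) the signal was 17.86, 17.89 and 17.81 in C, 18.65, 18.80 and 18.26 in H, 18.33 and 18.18 in CC_l and 18.56, 18.58 and 18.71 in HH. All obese libraries were above their controls, and the difference of 0.54 ± 0.13 did not pass (adjusted p = 0.0588 in limma). Without H 3 it was 0.62 and passed (adjusted p = 0.0379 in limma).

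Fitm2 (chr2:163466379-163472629, minus strand) encodes FIT2, which binds triacylglycerol in the endoplasmic reticulum and is needed for droplet formation. Its locus signal was 18.80, 18.80 and 18.48 in C and 18.15, 17.99 and 18.45 in H. It was 18.87 and 18.84 in CC_l and 18.48, 18.23 and 18.60 in HH. Each obese library lay below each of its controls, although H 3 and C 3 nearly touched. The difference was -0.50 ± 0.17 between H and C (adjusted p = 0.102 in limma) and -0.42 ± 0.18 between HH and CC_l (adjusted p = 0.429 in limma). Over both durations it was -0.46 ± 0.12 (adjusted p = 0.0319 in limma), and that call held in 4 of the 11 fits that left out 1 library, with adjusted p up to 0.103. It ended without C 1, C 2, H 1, H 2, CC_l 1, CC_l 2 or HH 2. The Fitm2 call also ended in 5 of 11 processing alternatives. On the gene span without flank the Fitm2 difference was -0.25 (limma adjusted p = 0.263), and the other 4 are the maximum signal, the enrichment ratio as a covariate, the 30000 strongest peaks (-0.38, limma adjusted p = 0.0787) and a fit of all 22 libraries together (-0.46, limma adjusted p = 0.165).

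The share of the Fitm2 locus under peaks was 45.0%, 54.0% and 57.5% in C and 31.1%, 30.3% and 33.4% in H. It was 42.5% and 56.6% in CC_l and 37.4%, 33.0% and 38.5% in HH. No obese library reached its lowest control. The difference over both durations was -16.9 percentage points (exact permutation p = 0.005, two-sided, unadjusted and the lowest value possible here). Relative to the covered share of the genome it was -1.72 (exact permutation p = 0.035). It was the only one of 20 tests of covered share, 10 genes in 2 contrasts, with a p under 0.05, and 3 of 20 were below it relative to the genome. The highest coverage of the locus over the library's median maximum was 3.97, 4.68 and 3.99 in C and 2.59, 2.55 and 3.22 in H, and 3.45 and 4.22 in CC_l and 2.20, 3.03 and 2.52 in HH. Plin1, Cidec and Fitm2 were lower in both pairs without overlap on this measure, as were 22.7% of 17844 loci. With the maximum signal in place of the total signal the Fitm2 difference was -0.19 (adjusted p = 0.411 in limma). The point of highest coverage of Fitm2 lay within 1 kb of its start in 19 of 22 libraries, on the gene side or at the start, and between -7846 and -7778 bp in the other 3, CC_s 1, CC_s 2 and CC_l 1.

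**Figure D3:**
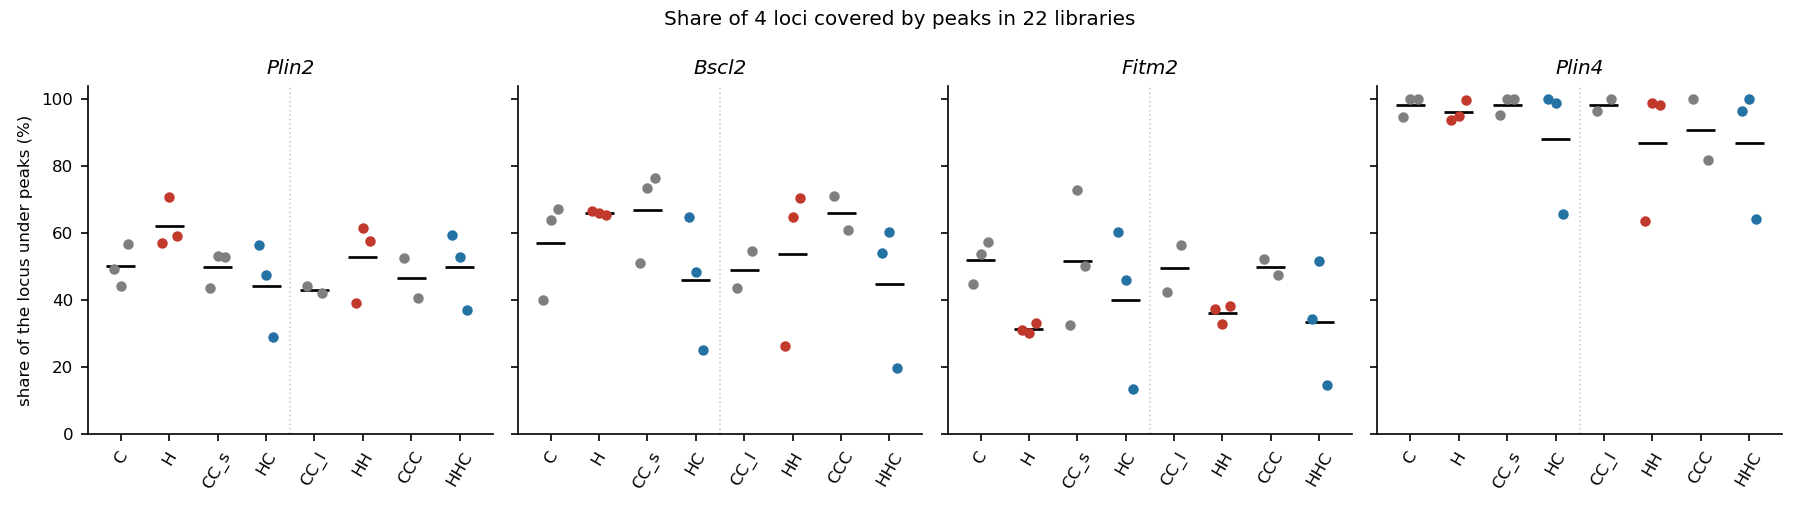
Share of the locus under peaks (%, vertical axis from 0) at Plin2, Bscl2, Fitm2 and Plin4 in 22 libraries by group, with 1 point per library and bars at the group means. The 6 obese libraries lie at 30.3% to 38.5% at Fitm2, below their 5 controls at 42.5% to 57.5%, and Plin4 falls to 63.8% to 65.8% in HH 1, HC 3 and HHC 3.

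Of the marker lists, the endothelial one moved with the obese groups in both pairs, whereas the macrophage one overlapped its controls in both. The endothelial marker list (6 genes, mean locus signal) was at 14.80 to 15.02 in C and 15.28 to 15.82 in H. It was at 14.83 to 15.04 in CC_l and 15.24 to 18.09 in HH, where the mean was 16.24 and a single library made the upper end. Over both durations 1 of its 4 tested loci, Cdh5, was called higher and none lower. Cdh5 and Tek were above the floor in only 12 and 4 of 22 libraries. Such loci pass the filter mostly through libraries where they are high, so their direction is a description only. Of the 6 promoters of the list, 0 to 1 in C, 0 in CC_l, 0 to 2 in H and 0 to 6 in HH held a signal above the floor. The mesothelial list (4 genes) was at 16.88 to 17.44 in C, 16.46 to 16.93 in H, 17.10 to 17.20 in CC_l and 16.51 to 16.69 in HH, with none of 4 called. The macrophage list (10 genes) was at 15.92 to 16.17 in C, 15.88 to 16.33 in H, 15.89 to 15.98 in CC_l and 15.55 to 15.95 in HH, with 1 of 8 tested called lower. Of the other lists, 1 of 4 tested lymphocyte genes was called lower, 1 of 3 brown adipocyte genes and 2 of 10 adipocyte genes were called higher, and 0 of 5 progenitor genes and 0 of 4 genes of unrelated tissues were called. The part of these cells, and of the lower enrichment ratio of H, in the results at Plin2, Bscl2 and Fitm2 was not tested beyond a fit with the enrichment ratio as a covariate, in which the differences were 0.55 at Plin2 (limma adjusted p = 0.095), 0.58 at Bscl2 (limma adjusted p = 0.0248) and -0.47 at Fitm2 (limma adjusted p = 0.108), against 0.66, 0.46 and -0.46 without the covariate.

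The remaining perilipins did not pass in obese mice. Plin1 (chr7:79720218-79732903, minus strand) was at 19.79, 19.96 and 20.29 in C and 20.05, 19.92 and 20.16 in H, with 20.26 and 20.09 in CC_l and 19.98, 20.15 and 20.22 in HH. These groups overlapped throughout, and the difference over both durations was -0.02 ± 0.10 (adjusted p = 0.936 in limma). The highest coverage of Plin1 lay upstream, between -2017 and -1812 bp, in 20 of 22 libraries and at its own start (49 bp) in CC_s 3 and HHC 2. Capitals in the Plin1 upstream window mark that position. Plin3 (chr17:56277476-56292873, minus strand), which encodes a coat protein recruited from the cytosol to nascent droplets, lay at a near-constant level between 19.32 and 19.97 over all 22 libraries. The highest point inside the Plin3 locus was at the start of Ticam1 in 8 libraries, of Uhrf1 in 6 and of Plin3 in 6, in a locus with 4 other coding genes. In 16 of 22 libraries a peak that reached into the Plin3 locus had a higher point outside it, so these places need not be the highest coverage there. Its promoter signal was lower in obese mice, by a difference of -0.99 ± 0.34 that did not pass (adjusted p = 0.146 in limma), and C 1 with 17.27 lay among the H libraries (16.91 to 17.54) while C 2 and C 3 were at 19.02 and 19.15. Without C 1 the difference was -1.29 and passed (adjusted p = 0.0139 in limma).

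Plin4 (chr17:56100591-56109803, minus strand) and Plin5 (chr17:56111601-56117596, minus strand) lie side by side and encode droplet proteins of adipocytes and of oxidative tissues, respectively. Plin4 ranked between 24 and 108 of 21938 loci in every library. Peaks covered more than 81% of its locus in 19 libraries, and 63.8%, 65.8% and 64.3% in HH 1, HC 3 and HHC 3. In 19 of the 20 libraries with a highest point inside the locus, that point lay in an exon of Plin4, 4735 to 8677 bp downstream of its start. In 8 libraries, those 2 without a point included, a peak touching the Plin4 locus had a higher point outside it. The place named was also that of the highest point in the Plin5 locus, so the 2 loci are not independent (r = 0.95 over 22 libraries). Obese and control groups overlapped at both, with differences of -0.14 ± 0.15 and -0.18 ± 0.17 (adjusted p = 0.576 and 0.512 in limma).

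Cidec (chr6:113424634-113435760, minus strand) encodes the protein that fuses droplets in white fat. It was at 19.55, 19.95 and 19.64 in C and 20.15, 19.997 and 20.08 in H, so that H lay above C. In the longer feeding it was at 20.01 and 20.10 in CC_l and 19.58, 20.06 and 20.30 in HH, and the groups overlapped. The difference was 0.36 ± 0.13 between H and C (adjusted p = 0.106 in limma) and 0.15 ± 0.13 over both (adjusted p = 0.482 in limma). Its highest coverage lay from -237 to -52 bp in 19 of 22 libraries, inside the printed promoter, at Rpusd3 in HH 1 and HHC 3 and at Jagn1 in CCC 2.

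Cidea (chr18:67343604-67367785, plus strand) encodes a droplet protein best known from brown fat. It had the lowest per-length level of the members, and its highest coverage was never within 1 kb of its start. That point lay at 26188 to 26246 bp downstream in 14 libraries and upstream, at -7130 to -7111 or -15744 to -15349 bp, in 8. Its locus signal was 18.26 to 18.60 in C and 18.62 to 18.91 in H, 18.44 and 18.67 in CC_l and 18.65 to 18.99 in HH. The difference over both durations, 0.27 ± 0.11, did not pass (adjusted p = 0.135 in limma).

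Hilpda (chr6:29272488-29275446, plus strand) encodes a lipase inhibitor that hypoxia and fatty acids induce. Its locus signal was 18.22, 18.30 and 18.25 in C, 17.87, 18.28 and 18.21 in H, 18.24 and 18.45 in CC_l and 18.48, 18.49 and 18.47 in HH. HH was tight and above CC_l, whereas H and C overlapped, and over both durations the difference was 0.00 ± 0.10 (adjusted p = 0.993 in limma). The highest coverage was at its own start in 13 libraries and 8 kb upstream, from -8125 to -8083 bp, in the other 9. The latter is the Hilpda upstream window printed above. At the promoter HH was 1.198 ± 0.27 above CC_l, which did not pass (adjusted p = 0.351 in limma).

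**Figure D4:**
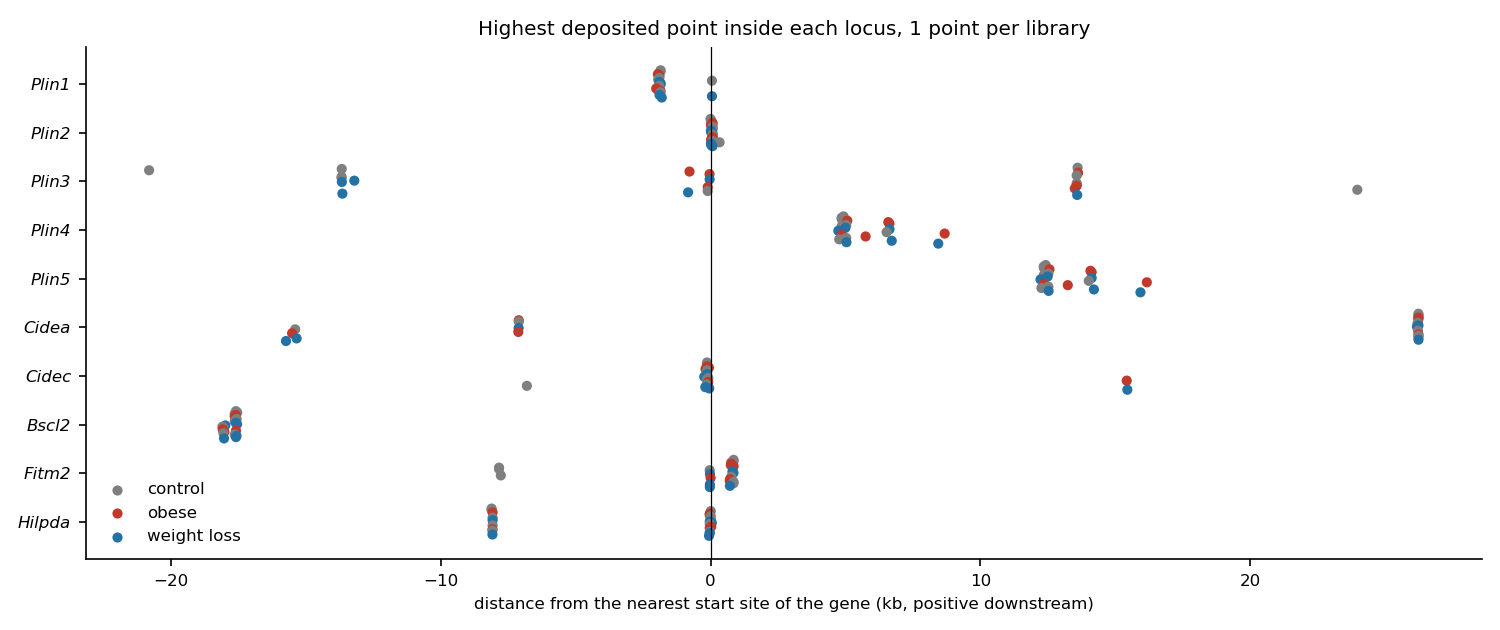
Distance of the highest deposited point inside each locus from the nearest start site of the gene (horizontal axis, kb, positive downstream), with 1 point per library spread vertically for legibility and coloured by arm. Plin2 lies at its start in 22 of 22 libraries and Plin1 upstream of it in 20, whereas the points of Bscl2 all lie near -18 kb. For Plin4 and Plin5, 2 libraries have no point because the highest base of their peak lay outside the locus, and at Plin2, Plin3 and Plin4 a higher point outside the locus belonged to a touching peak in 18, 16 and 8 libraries.

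After weight loss no member was called. Over both durations 0 of 10 loci passed, as against 0.0437% of 18301 loci, and 0 of 10 members had an unadjusted p under 0.05 in limma, against 2456 loci. In the pairs the share of all loci called was 0 between HC and CC_s and 0 between HHC and CCC, with 1525 and 704 loci at an unadjusted p under 0.05, and 0 members among them. The obese and weight loss comparisons use different libraries throughout, and neither was tested against the other.

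At Plin2 the weight loss libraries tended to lie above their controls without passing. The locus signal was 18.96, 18.46 and 18.85 in CC_s and 19.03, 19.09 and 19.18 in HC, and 18.99 and 18.89 in CCC and 19.57, 18.80 and 19.40 in HHC. HC lay above CC_s throughout, and HHC 2 fell below both CCC libraries. The difference was 0.33 ± 0.16 over both durations (adjusted p = 0.402 in limma). At Bscl2 the direction was the opposite of that in obese mice, with 18.92, 19.15 and 19.03 in CC_s, 18.99, 18.99 and 19.06 in HC, 19.29 and 19.35 in CCC and 19.13, 18.93 and 18.62 in HHC. HC and CC_s overlapped and HHC lay below CCC, for a difference of -0.22 ± 0.12 (adjusted p = 0.424 in limma). The share of the Bscl2 locus under peaks had a weight loss difference of -21.1 percentage points, which did not pass (exact permutation p = 0.07). That p fell below 0.05 when CC_s 1 or HC 1 was left out.

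At Fitm2 the spread was set by the libraries that stood apart. The locus signal was 18.64, 18.44 and 18.45 in CC_s, 18.71, 18.78 and 17.90 in HC, 18.57 and 18.69 in CCC and 18.60, 18.58 and 17.49 in HHC. HC 3 and HHC 3 were the lowest 2 of these 11 libraries. The difference was -0.23 ± 0.25 (adjusted p = 0.631 in limma). Hilpda showed the same pattern in HHC 3, at 16.28 against 18.27 and 18.22 in HHC 1 and HHC 2. Without HC 3 and HHC 3, a choice made after the data had been seen, still 0 of 10 members were called. The progenitor list (5 genes) was at 16.59 to 17.65 in HC (mean 16.99) and 16.96 to 18.02 in HHC (mean 17.35). Its controls were at 16.40 to 16.80 in CC_s and 16.57 to 16.91 in CCC. The endothelial list (6 genes) was at 15.25 to 16.61 in HC (mean 15.71) against 14.69 to 14.90 in CC_s, without overlap. It was at 14.92 to 17.74 in HHC (mean 15.93) against 14.87 to 16.04 in CCC. In both lists a single library made the upper end of HC and of HHC. No locus of either list was called in weight loss, where 4 of 5 progenitor and 5 of 6 endothelial loci were higher, with median differences of 0.57 and 0.78. Of the endothelial loci, Kdr, Tek and Tie1 were above the floor in only 4, 4 and 3 of 22 libraries. Such loci pass the filter only through libraries where they are high, so the endothelial count and median are descriptions only. The part of these cells in the weight loss values was not tested.

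The counts of loci whose groups did not overlap give the same picture against their background. Between H and C this held for 6 of 10 members, 5 higher (Plin2, Plin3, Cidea, Cidec, Bscl2) and Fitm2 lower, where 37.9% of all loci did not overlap. Between HH and CC_l it held for 4 of 10, with Plin2, Bscl2 and Hilpda higher and Fitm2 lower, against 32.3%. It held for Plin2 alone between HC and CC_s (16.2%), and for Bscl2 and Hilpda, both lower, between HHC and CCC (24.9%). In the same direction in both obese pairs it held for 3 of 10 members (14.7%), and in both weight loss pairs for 0 of 10 (5.07%). Groups of 3 and 2 libraries separate easily, and these shares are descriptions.

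Control groups of different age were compared to give the background without high-fat diet. They share their libraries with the comparisons above. None of 10 members was called between CC_s and C or between CCC and CC_l, where 0 and 0 of all loci were called and 919 and 1639 had an unadjusted p under 0.05 in limma. Among the latter were Plin4, Plin5 and Cidec, all lower in CCC. The differences between CCC and CC_l were as large as those of the obese groups at some members. Plin4 was at 21.16 and 20.78 in CCC and 21.72 and 21.49 in CC_l, a difference of -0.64 ± 0.16 (adjusted p = 0.510 in limma). Cidec differed by -0.43 ± 0.13 between the same groups, with the same adjusted p in limma. Bscl2 differed by 0.36 ± 0.15, in the direction seen in obese mice (limma adjusted p = 0.510).

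At promoters no member passed in any comparison. The shares of all promoters called were 2.35% between H and C, 0.0866% between HC and CC_s, 0.0843% between HH and CC_l, 0 between HHC and CCC, 4.01% over both durations in obese mice and 0 over both in weight loss. At an unadjusted p under 0.05 in limma, 3 members were higher and 1 lower in obese mice, where 2762 of 13868 promoters were under it, and 0 differed in weight loss, where 1331 of 14203 promoters did. Plin2 was at 18.54, 18.00 and 18.36 in C and 18.95, 19.35 and 19.07 in H, and at 18.97 and 18.04 in CC_l and 19.04, 19.05 and 19.42 in HH. The obese libraries lay above their controls in both pairs, narrowly so for CC_l 1, and the difference of 0.74 ± 0.20 missed the threshold (adjusted p = 0.0751 in limma). Without CC_l 1 it was 0.98 and passed (adjusted p = 0.0438 in limma). Cidec differed by 0.44 ± 0.14 (adjusted p = 0.116 in limma). Cidea was the only member near the floor of 14.30 here, between 14.30 and 17.97, and the top value was that of HHC 2. In all libraries but HC 3, HH 1 and HHC 3 the Plin4 and Plin5 promoters had the same value, since 1 peak spanned both.

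Peaks of all libraries were also merged into regions, of which 16 touched a member locus. A peak was present in 22 of 22 libraries at 13 of them. The other 3, all at Plin2, held a peak in 1 or 2 libraries and were not tested. None of the 13 met the rule for regions, which asks for a limma adjusted p under 0.05 and a log2 difference over 1 in size. That rule called 8.28% of all tested regions between H and C, 0 in each of the other 3 pairs, 4.21% over both durations in obese mice and 0.105% in weight loss. At an adjusted p under 0.05 of any size, 4 of the 13 passed in obese mice, against 14.0% of all 41046 regions. They were the region over the Plin2 start (chr4:86643726-86675809, 0.67 ± 0.14, limma adjusted p = 0.0113), the Plin2 upstream region (chr4:86682737-86698852, 0.45 ± 0.12, limma adjusted p = 0.0337), the region over the Bscl2 start (chr19:8814399-8862028, 0.40 ± 0.11, limma adjusted p = 0.0408) and the region over the Fitm2 start (chr2:163448682-163483949, -0.45 ± 0.09, limma adjusted p = 0.0137). The region over the Cidea start came next (0.31 ± 0.11, limma adjusted p = 0.0888).

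The region over the Plin2 start was 32.1 kb wide and held all of the gene. It was at 18.49, 18.29 and 18.92 in C and 18.99, 19.38 and 19.05 in H, and at 18.52 and 18.08 in CC_l and 18.94, 19.10 and 19.18 in HH. All obese libraries were above their controls. Its weight loss difference of 0.29 ± 0.12 was the member region with the smallest p in that contrast (limma adjusted p = 0.365). Next came a region at the start of Tubb6 beside Cidea (0.45 ± 0.31), the regions over the starts of Cidea (0.24 ± 0.17) and Bscl2 (-0.16 ± 0.11), and a region near Ubxn1 beside Bscl2 (-0.27 ± 0.21), with limma adjusted p from 0.521 to 0.552. The regions over the starts of Plin1, Plin3, Cidec, Hilpda and of Plin4 with Plin5 were 32.0 to 144 kb wide. Their differences in obese mice lay between -0.20 and 0.01, with limma adjusted p from 0.412 to 0.949.

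Other genes of droplet biology were read from the same fit. Of 36 such genes, all tested, 4 were higher and 3 lower in obese mice and 0 passed in weight loss. These 7 calls compare with 15.3% of all loci called in obese mice and 0.0437% in weight loss, and 3 of the 36 (Pnpla2, Lipe and Acsl1) are also in the adipocyte marker list. Acsl1 (acyl-CoA synthetase) rose by 0.45 ± 0.08 (limma adjusted p = 0.00781), Agpat2 (an acyltransferase of triacylglycerol synthesis) by 0.52 ± 0.12 (limma adjusted p = 0.0171) and Dgat2 (which catalyses its last step) by 0.40 ± 0.10 (limma adjusted p = 0.0298). The listed genes Dgat1, Gpat4, Lpin1 and Acsl3 did not pass, with differences of -0.10, 0.06, 0.09 and -0.42 (limma adjusted p from 0.320 to 0.801). Tmem135 rose by 0.54 ± 0.06 (limma adjusted p = 0.000912). G0s2, an inhibitor of adipose triglyceride lipase, differed by -0.53 ± 0.12 (limma adjusted p = 0.0191). Sqle, squalene epoxidase of sterol synthesis, differed by -0.96 ± 0.25 (limma adjusted p = 0.0323), and Mettl7a1 by -0.66 ± 0.14 (limma adjusted p = 0.0118). Lss and Nsdhl, also listed and of sterol synthesis, did not pass (0.07 at each, limma adjusted p = 0.890 and 0.895). The smallest p values in weight loss were those of Vps13c, a lipid transfer protein (-1.17 ± 0.34, limma adjusted p = 0.233), Pnpla3, a droplet hydrolase (-0.67 ± 0.22, limma adjusted p = 0.290) and Hsd17b13, a droplet dehydrogenase (-0.95 ± 0.33, limma adjusted p = 0.300). The median difference of the 36 was 0.0045 in obese mice and -0.108 in weight loss, against -0.0218 and -0.0145 over all loci.

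The members did not vary as 1 group across the 22 libraries. Apart from Plin4 with Plin5, the highest correlation between members was that of Fitm2 with Hilpda (r = 0.72), where HHC 3 was lowest in both, and the lowest was that of Plin2 with Fitm2 (r = -0.50). Loci over 1 Mb away with the most similar pattern were also listed, 3 for each member in order of r. They were Kif1c, Elf5 and Slc16a10 for Plin1 (r from 0.83 to 0.77). For Plin2 they were Lbh, Mbp and Il20rb (0.89 to 0.87), and for Plin3 Myo5b, Nanos2 and Abhd14b (0.76 to 0.75). For Plin4 they were Otud5, Gtpbp3 and Leng1 (0.90 to 0.88), and for Plin5 Otud5, Cth and Napepld (0.86 to 0.83). For Cidea they were Atp6v1b2, Micu3 and Cdip1 (0.89 to 0.86), and for Cidec Gins4, Stmn4 and Dctn3 (all 0.75). For Bscl2 they were Pdpk1, Zfp91 and Ice2 (0.82 to 0.81), for Fitm2 Efnb1, Ankrd46 and Myh7 (0.91 to 0.90), and for Hilpda Cdc73, Rsg1 and Ticrr (0.93 to 0.92). All points share the quality of their libraries, and these values describe likeness only. The spread within groups ranged from a pooled SD of 0.15 at Bscl2 to 0.46 at Hilpda.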

How the data were processed

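ATAC-seq peak lists of 22 libraries, each from 1 mouse, were used. Per the submitters' processing notes, the authors used Trim Galore 0.6.6, Bowtie2 2.4.4, SAMtools 1.13, bedtools 2.30 and SEACR 1.3 (stringent), with peaks called in each library on its own in GRCm38. The deposited values are signal: the coverage summed over a peak (total signal) and its highest coverage (maximum signal). They hold no read counts, so depth is unknown and no counting interval can be given. In the comparisons between libraries, wide peaks that run past a locus were counted whole, which lets neighbouring genes add to a locus. The signal per kb was prorated by overlap.

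Peaks overlapping each GENCODE vM21 gene span with 20 kb on each side (promoters: 2000 bp on each side of start sites) were summed, rank-mapped on the log2 scale and fitted with limma 3.58.1 (trend, two-sided, Benjamini-Hochberg adjustment over all features, R 4.3.3), after a filter on low values. A call is an adjusted p under 0.05, and for merged regions also a log2 difference over 1 in size. Contrasts over both durations average 2 pairs in 11 libraries. Covered shares were tested by exact permutation within durations (200 relabellings, unadjusted). Python 3.11.15, numpy 2.4.6, pandas 2.3.3 and matplotlib 3.10.9 were used, and the fits were tested on simulated data. Sequences are from RefSeq (GRCm38.p6), with none shown for Cidea.

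The members, the 36 pathway genes and the marker lists (adipocytes, macrophages, endothelial cells, progenitors, mesothelial cells, lymphocytes, brown adipocytes and unrelated tissues) were chosen with earlier results of these data known. Named were all members, regions over their starts, the 5 regions with the smallest p per contrast, and the 3 loci most correlated with each member. Pathway genes were named where called or among the 3 smallest p, with some uncalled genes of lipid synthesis beside them. Alternatives covered scaling, maximum signal, flank, prorating, peak threshold, filter, trend, replicate block, the enrichment ratio as a covariate and each library left out. Same-numbered libraries did not deviate together (r from -0.21 to 0.14), so the numbers were not used as pairs.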

Additional observations from a re-analysis of the deposited data

How the results depend on the processing

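The depth of the libraries is unknown and groups hold 2 or 3 animals, so a difference that did not pass is not shown to be absent. No result reversed. Between H and C, 1 member locus was called, and 0 were under division by the summed signal, the maximum signal, the gene span without flank, the replicate block and limma without trend, and 0 to 0 when 1 library was left out. With the signal prorated by overlap the 1 call was Fitm2. Over both durations in obese mice 3 member loci were called, against 1 under division by the summed signal, 0 with the maximum signal, 1 with the enrichment ratio as a covariate (Plin2 0.55 and Fitm2 -0.47 then did not pass, against 0.66 and -0.46), and 1 to 3 when 1 library was left out (1 without CC_l 1 or CC_l 2). In that contrast the Bscl2 call also ended with prorated signal, and the Fitm2 call on the gene span without flank, with the 30000 strongest peaks and in a fit of all 22 libraries. With the replicate block, 358 loci were called between H and C in place of 1873, and Plin2, Bscl2 and Fitm2 remained called over both durations (limma adjusted p = 0.032, 0.0285 and 0.0464). For promoters, 0 to 1 members were called between H and C and 0 to 1 over both durations in obese mice when 1 library was left out. For covered share in obese mice, 1 member had an exact permutation p under 0.05, against 3 relative to the genome, 0 with the 30000 strongest peaks and 1 to 2 when 1 library was left out, and in weight loss 0 to 1. Without HC 3 and HHC 3, chosen after seeing the data, 0 members were called in weight loss. The causes were not tested. Division by the summed signal moved the median of all loci to -0.114 in obese mice and -0.203 in weight loss, and called loci were 40.04% higher in place of 56.0% (promoters 28.1% in place of 56.6%, regions 69.2% in place of 58.3%). The 3 called loci stayed called over both durations in 46 of 66 alternative fits (Plin2 18, Bscl2 18 and Fitm2 10 of 22 each).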
